A study of Bos taurus with 20 samples.

Results

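The genes described here encode amino acid transporters of the solute carrier families SLC1, SLC3, SLC7, SLC36, SLC38 and SLC43, measured in cow liver around calving. They were chosen by gene symbol, as every symbol of the deposited array table that belongs to one of these families. Earlier results of these data were known at that choice. Each gene was represented by its brightest probe set. This gave 35 genes of 20011. SLC38A9 had 2 probe sets and the other genes 1 each, and none of the probe sets used was marked as cross-hybridizing. SLC1A2, SLC1A6, SLC7A13, SLC38A8 and SLC43A1 were not analysed here.

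The arrays came from 10 multiparous Holstein-Friesian dairy cows, 5 per diet, whose liver was sampled antepartum and postpartum, giving 20 arrays in 4 groups of 5. In the 4 weeks before calving, phosphorus made up 0.16% of ration dry matter in the low phosphorus group (LP) and 0.35% in the adequate group (AP). The AP concentrate carried mono-ammonium phosphate, and the LP concentrate carried urea so that both rations supplied the same nitrogen. Intake of all cows was restricted to 11.5 kg of dry matter in the dry period, and from calving on all cows received 1 lactation ration with adequate phosphorus. The labels used here give no day of sampling and no batch. The LP cows are called A, B, C, D and E, the AP cows F, G, H, I and J, and values listed by group follow that order. Every signal is on a log2 scale, on which 1 unit means a 2-fold difference. Each probe set has its own response, so different genes are compared only roughly, as percentiles or against a quartile of gene means. The comparisons ask how liver expression changed across calving and whether a phosphorus-poor ration altered it.

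Amino acid transporters move amino acids across cell membranes as cotransporters, exchangers or uniporters. In liver they supply substrate for urea synthesis, gluconeogenesis and export of plasma proteins, and they release glutamine and glutamate back to the blood. The SLC7 light chains work only as pairs with an SLC3 heavy chain, which brings them to the membrane. Several SLC38 and SLC36 proteins sit in the lysosome, where they take part in amino acid sensing by the kinase complex mTORC1.

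The samples were liver by their markers, since 13 of 13 hepatocyte genes had a mean signal at or above the 86.0 percentile of all genes, with a median at the 99.9 percentile. The array of cow C postpartum (LP) stood apart from the other 19. On the first principal component, which held 24.8% of the variance, its score was 85.8, against -10.3 to 2.65 in the others. Its adipocyte marker score, the mean deviation of 7 measured markers from their means over all arrays, was 3.89, against -0.50 to 0.051 in the other arrays, and 7 of 7 markers were highest in it. The fibroblast or stellate cell score was 3.18 there (11 of 12 markers highest) against at most 0.62 elsewhere, the endothelial score 0.71 against at most 0.20, and the hepatocyte score -0.26 against -0.091 to 0.13. Skeletal muscle markers scored 1.95 there, and 1.71 in the antepartum array of cow F (AP). In bulk tissue, fewer cells of a type and less RNA per cell cannot be told apart. Many values that this array moved by more than 1.5 times are therefore also given without it, though not every such value.

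In cow C postpartum 13 of the 35 genes were above and 7 below all other 19 arrays, which is 57.1% of the members against 33.4% of all genes. No other array was outside the rest for more than 14.3% of the members. SLC1A3 (EAAT1), a glutamate carrier, was at 7.55 in cow C postpartum and between 4.56 and 5.04 in the other arrays. SLC38A1 (SNAT1), a system A carrier of small neutral amino acids, was at 7.87 against 5.08 to 5.99. SLC1A5 (ASCT2), which exchanges glutamine and other neutral amino acids, was at 6.87 against 4.77 to 5.48. All 3 genes were thus far above every other liver sample, including the antepartum sample of the same cow. SLC38A2, SLC7A8, SLC7A6, SLC43A3, SLC43A2, SLC7A7, SLC38A6, SLC7A5, SLC36A1 and SLC1A7 were also highest in that array, by smaller margins. The 7 genes that were lowest in it were SLC7A9, SLC1A1, SLC38A4, SLC7A2, SLC38A3, SLC38A7 and SLC3A1. SLC7A9, the light chain of the cystine carrier, was at 6.45 against 7.44 to 8.74. SLC38A4 (SNAT4), a system A carrier made mainly in liver, was at 11.23 against 11.74 to 12.30. The part of the other cell types in these values was not tested.

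**Figure D1:**
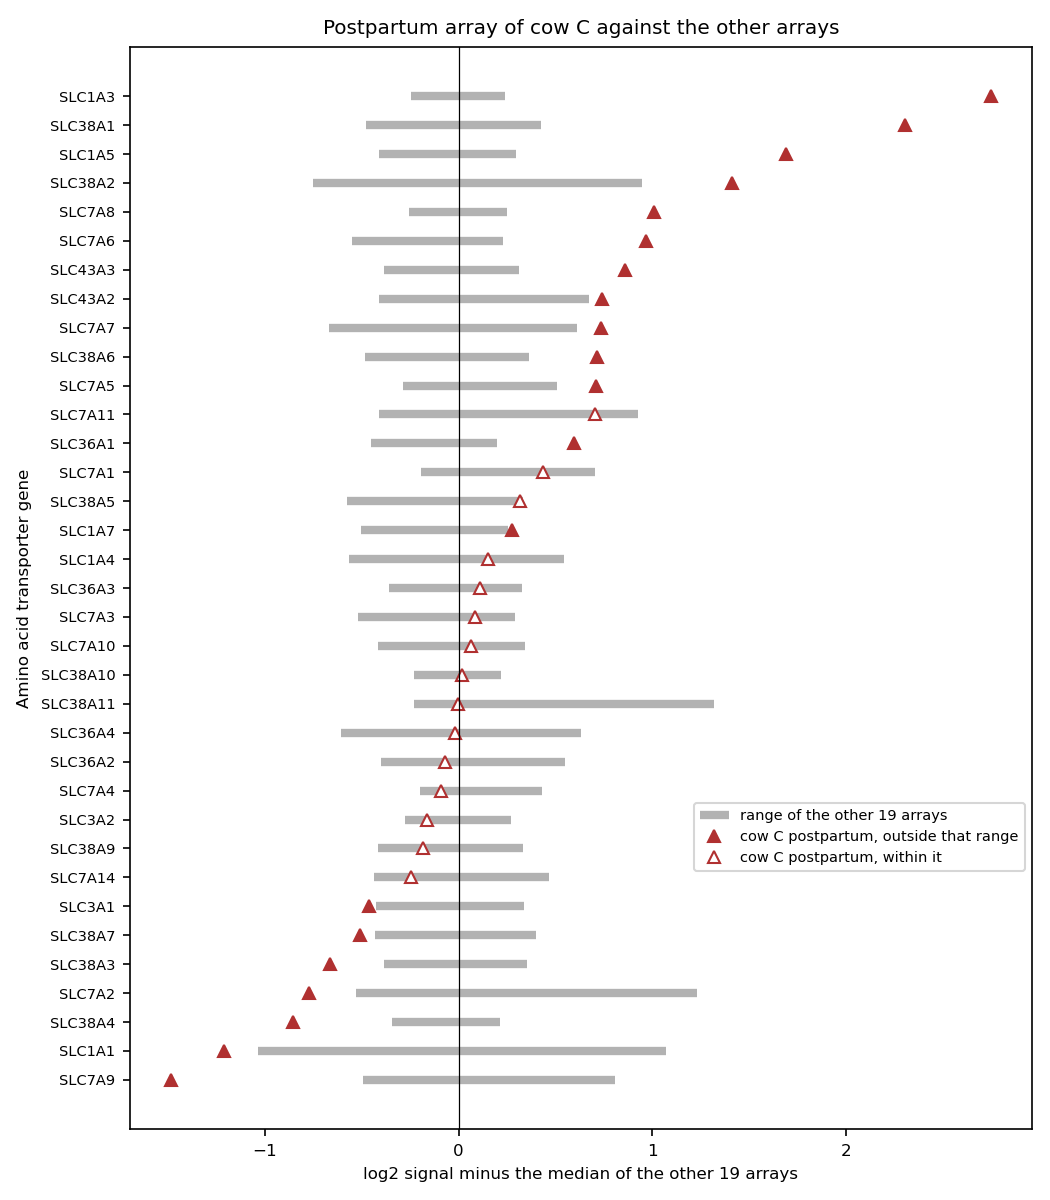
Each row is 1 of the 35 transporter genes. The triangle is the signal of cow C postpartum and the grey bar the range of the other 19 arrays, both as log2 signal minus the median of those 19 arrays. Filled triangles lie outside the range, 13 above it and 7 below it, and SLC1A3 and SLC38A1 lie farthest above.

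Across calving, over both diets and with all 20 arrays, 0 of 35 transporter genes passed (limma, adjusted p under 0.05 over 20011 genes), against 1.5 percent of all genes. At an unadjusted p under 0.05 there were 8, 5 higher and 3 lower postpartum, which is 22.9% of the members against 11.9% of all genes. The 5 were SLC38A2, SLC7A2, SLC43A2, SLC7A11 and SLC36A1, and the 3 were SLC1A1, SLC3A2 and SLC1A4, against 5.58 percent of all genes higher and 6.27 percent lower. With the animal as a block 0 passed, against 1.9 percent, and 8 were under an unadjusted 0.05, against 13.7 percent. These 8 held SLC7A5 in place of SLC1A4, so that 6 were higher and 2 lower, against 6.65 and 7.04 percent of all genes. The paired test of the authors' deposited table gave 0 after Benjamini-Hochberg adjustment, against 0.445 percent of all genes, and 5 of 35 before it, against 13.2 percent. Of the macrophage markers 12 of 13 were lower postpartum, with a median log2 difference of -0.31, and 1 passed. Their score went from between -0.18 and 0.13 antepartum to between -0.49 and -0.051 postpartum in AP, and from between -0.092 and 0.58 to between -0.61 and 0.24 in LP. Of 8 pericentral hepatocyte markers 2 passed, both lower, with a median of -0.052. Of the 13 hepatocyte markers 1 passed higher and 3 lower, with a median of -0.057, and 38.5% were under an unadjusted 0.05. Of the T or NK cell markers 13 of 14 were lower, with a median of -0.12, and 0 passed. The part of these markers in the transporter values was not tested. No member moved the same way in all 10 cows, which 1.5 percent of all genes did. The median log2 difference of the members was 0.035, with 21 of 35 above 0, beside -0.012 over all genes.

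Without the array of cow C postpartum, 2 of 35 genes passed for time over both diets, which is 5.71% against 2.73 percent of all genes. Both were higher postpartum, against 1.62 percent of all genes higher and 1.11 percent lower. SLC7A2 (CAT2) carries arginine, lysine and ornithine into hepatocytes, and SLC7A9 (b0,+AT) exchanges cystine and cationic for neutral amino acids as the partner of SLC3A1. SLC7A2 rose 1.54-fold (log2 difference 0.63, SE 0.14, limma adjusted p = 0.0178) and SLC7A9 rose 1.33-fold (log2 difference 0.41, SE 0.11, limma adjusted p = 0.0403). SLC7A2 was higher after calving in 9 of the 9 other cows and SLC7A9 in 7 of 9. In the other comparisons 0 of 35 passed without that array, against 1.43 percent of all genes for time in AP, 0.045 percent for time in LP, 0.005 percent for each diet comparison and 0 percent for the interaction. At an unadjusted p under 0.05 there were 8 for time over both diets, against 13.7 percent, but not the same 8. SLC36A1, SLC43A2 and SLC7A11 were no longer among them and SLC38A7, SLC7A9 and SLC7A7 were, so that 4 were higher and 4 lower, against 6.95 percent and 6.75 percent of all genes. The macrophage markers had a median of -0.35 without that array, the hepatocyte markers -0.015 and the T or NK cell markers -0.063. Without that array the median over the 35 genes was 0.0088, with 18 above 0, beside -0.011 over all genes.

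**Figure D2:**
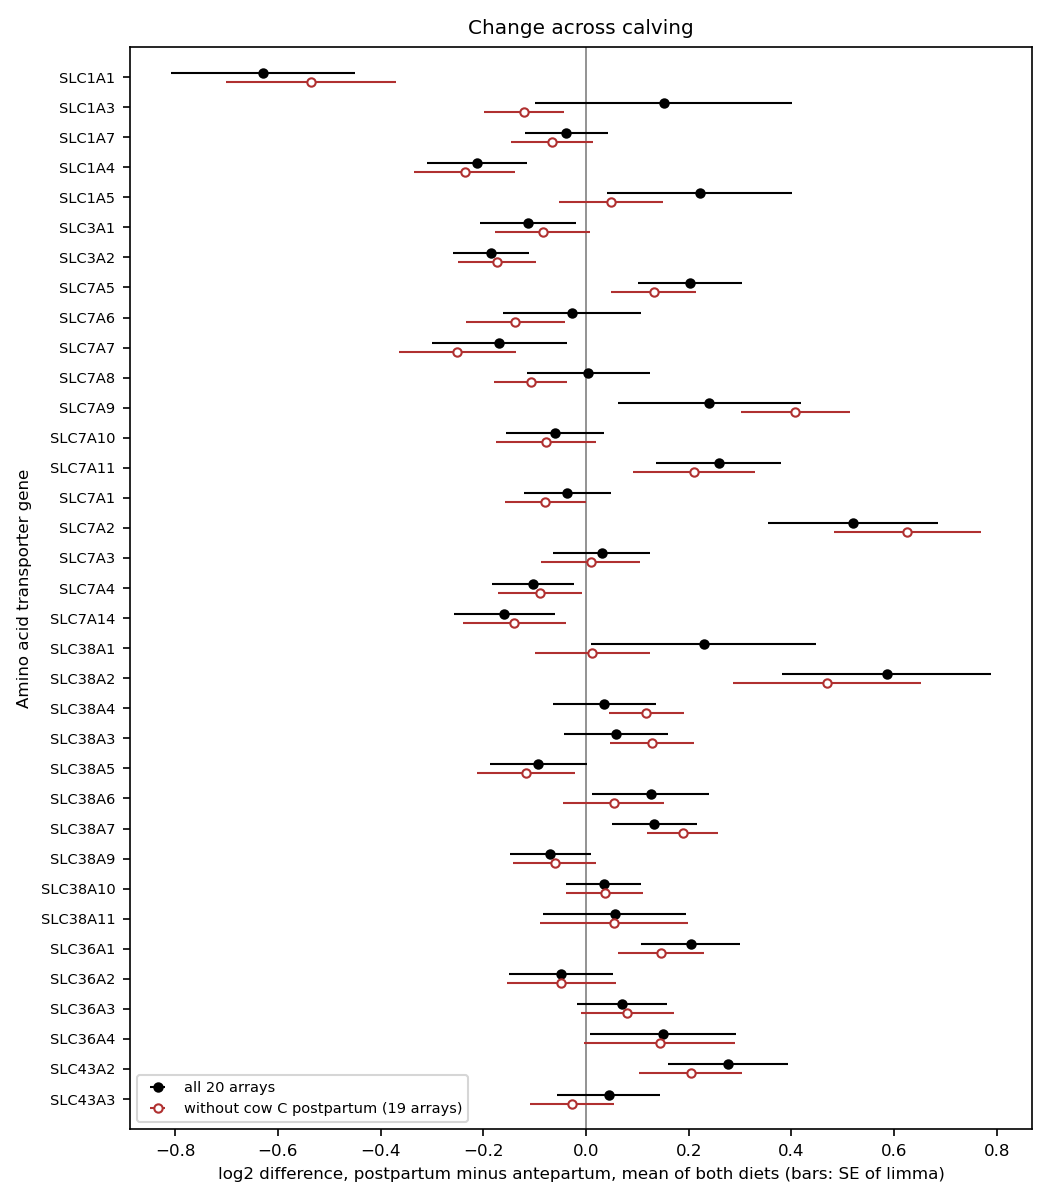
The log2 difference of postpartum minus antepartum, as the mean of both diets, is plotted for each transporter gene with its SE from limma. Filled black points use all 20 arrays and open red points leave out cow C postpartum. SLC38A2 and SLC7A2 lie farthest to the right and SLC1A1 farthest to the left in both, and SLC1A3, SLC7A8 and SLC43A3 change sign between them.

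Among the glutamate carriers, SLC1A1 (EAAT3; chromosome 8, 40180179 to 40253112, minus strand) takes up glutamate, aspartate and cysteine with sodium. Coordinates are those of the deposited annotation, and the sources used here do not give its genome build. In AP its signals were 8.89, 8.87, 8.51, 8.75 and 8.64 antepartum and 8.69, 8.00, 7.96, 8.27 and 8.54 postpartum. In LP they were 9.70, 8.50, 9.06, 9.02 and 8.63 antepartum and 8.26, 8.97, 7.42, 8.59 and 7.59 postpartum. The gene was lower postpartum in every cow except B, and the groups overlapped in both diets. The means were 8.73 ± 0.16 (SD, n = 5) and 8.29 ± 0.32 in AP, and 8.98 ± 0.47 and 8.17 ± 0.66 in LP. The log2 difference over both diets was -0.63 (SE 0.18, limma adjusted p = 0.0883), and -0.54 without cow C postpartum (adjusted p = 0.0946), so it did not pass in either. It passed without cow B, at -0.79 (limma adjusted p = 0.0166).

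For SLC1A3 the log2 difference was 0.15 with all arrays and -0.12 without that one, a change of sign, and for SLC1A7 (EAAT5) it was -0.039 and -0.066. The neutral exchangers were SLC1A4 (ASCT1), which carries alanine, serine and cysteine, and SLC1A5. SLC1A4 had means of 5.99 ± 0.25 and 5.73 ± 0.11 in AP and 5.96 ± 0.17 and 5.80 ± 0.30 in LP, a log2 difference of -0.21 (SE 0.097, limma adjusted p = 0.388). It was lower postpartum in 8 of 10 cows. SLC1A5 had a log2 difference of 0.22, which was 0.049 without cow C postpartum.

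Both heavy chains had negative time differences in each diet, and neither passed. SLC3A2 (4F2hc) is the partner of SLC7A5, SLC7A6, SLC7A7, SLC7A8, SLC7A10 and SLC7A11. Its AP signals were 7.47, 7.22, 7.56, 7.48 and 7.50 antepartum and 7.33, 7.31, 7.29, 7.20 and 7.10 postpartum. The LP signals were 7.61, 7.28, 7.46, 7.61 and 7.48 antepartum and 7.20, 7.65, 7.21, 7.38 and 7.15 postpartum. It was lower postpartum in all cows but G and B, and cow B held the highest signal of all arrays. The log2 difference was -0.19 (SE 0.074, limma adjusted p = 0.280), and it passed only without cow B, at -0.25 (adjusted p = 0.0496). SLC3A1 (rBAT), the partner of SLC7A9, had AP signals of 4.74, 4.62, 4.71, 4.61 and 4.60 antepartum and 4.84, 4.46, 4.60, 4.94 and 4.27 postpartum. In LP they were 4.80, 4.42, 4.18, 4.69 and 4.72 antepartum and 4.41, 4.39, 4.14, 4.34 and 4.58 postpartum, lower after calving in 5 of 5 cows. Its log2 difference in LP was -0.19 (SE 0.13, limma adjusted p = 0.878) and in AP -0.036. SLC3A1 was dim, with a mean signal at the 17.1 percentile of all genes.

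The 6 light chains that pair with SLC3A2 did not share its direction, since 3 had positive and 3 negative time differences (2 and 4 without cow C postpartum). SLC7A11 (xCT), which imports cystine in exchange for glutamate, had AP signals of 4.60, 4.75, 4.50, 4.74 and 4.62 antepartum and 4.92, 4.92, 4.70, 4.60 and 4.84 postpartum. In LP its signals were 4.85, 4.59, 4.69, 4.64 and 4.55 antepartum and 4.71, 5.63, 5.40, 5.08 and 4.29 postpartum. Cows B, C and D stood above the antepartum range after calving and cow E below it. The LP means were 4.66 ± 0.12 and 5.02 ± 0.54, and the log2 difference over both diets was 0.26 (SE 0.12, limma adjusted p = 0.408). SLC7A5 (LAT1), a carrier of leucine and other large neutral amino acids, was higher postpartum in 5 of 5 AP cows, with means of 4.73 ± 0.15 and 5.02 ± 0.22. Its log2 difference in AP was 0.29 (SE 0.14, limma adjusted p = 0.568) and in LP 0.12, or -0.026 without cow C postpartum. SLC7A11 and SLC7A5 were dim, with mean signals at the 20.4 and 22.3 percentiles of all genes.

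SLC7A7 (y+LAT1), which exports arginine and lysine in exchange for neutral amino acids, had AP signals of 7.25, 6.82, 6.96, 7.18 and 6.84 antepartum and 6.72, 6.99, 7.11, 7.27 and 6.33 postpartum. The LP signals were 6.92, 7.17, 7.46, 7.61 and 7.26 antepartum and 6.78, 6.84, 7.73, 7.11 and 6.89 postpartum. The highest signal was that of cow C postpartum and the lowest that of cow J postpartum. The time difference was -0.17 with all arrays and -0.25 without cow C postpartum (limma adjusted p = 0.323). SLC7A6 (y+LAT2), SLC7A8 (LAT2) and SLC7A10 (Asc-1) had differences of -0.027, 0.0044 and -0.060, which were -0.14, -0.11 and -0.078 without cow C postpartum. SLC7A8 and SLC7A7 both lie on chromosome 10, with starts at 21521555 and 21832584, and in cow C postpartum both were above every other array.

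SLC7A9 (chromosome 18, 43435070 to 43466267, minus strand) pairs with SLC3A1 in kidney and gut epithelium. In AP its signals were 7.56, 7.91, 7.90, 7.93 and 7.91 antepartum and 8.22, 8.74, 7.82, 8.01 and 8.23 postpartum. In LP they were 8.09, 7.59, 7.57, 7.64 and 7.44 antepartum and 8.06, 8.07, 6.45, 8.30 and 8.06 postpartum. It was higher postpartum in 7 of 10 cows and far lower in C, and the changes in I (0.078), A (-0.037) and H (-0.074) were small. The LP postpartum mean was 7.79 ± 0.76 with cow C and 8.12 ± 0.12 without it. With all arrays the log2 difference was 0.24 (SE 0.18, limma adjusted p = 0.698). The pass without cow C postpartum was lost when cow B, D, E, F, G, I or J was also left out (adjusted p 0.0585 to 0.138) and when the antepartum array of cow F was (0.0818). It was kept without cow A or H. Of 11 fits that left out 1 whole cow or only the postpartum array of cow C, SLC7A9 passed in 1, the latter. With both arrays of cow C left out, it did not pass. The call thus depended on which cows were included.

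Of the 5 cationic carriers, SLC7A2 (chromosome 27, 18785638 to 18810610, minus strand) had the largest time difference. In AP its signals were 8.64, 9.07, 9.46, 8.87 and 8.89 antepartum and 9.26, 9.54, 9.94, 9.39 and 10.30 postpartum, higher in 5 of 5 cows. In LP they were 8.80, 8.54, 8.84, 8.95 and 8.87 antepartum and 9.20, 8.82, 8.30, 9.73 and 9.68 postpartum, higher in every cow but C. In each diet the groups overlapped. The means were 8.99 ± 0.31 and 9.69 ± 0.43 in AP, and 8.80 ± 0.16 and 9.14 ± 0.60 in LP, the last being 9.36 ± 0.43 without cow C. The log2 difference with all arrays was 0.52, or 1.43-fold (SE 0.17, limma adjusted p = 0.143), and did not pass. With the animal as a block it was the same size (adjusted p = 0.0640). The pass without cow C postpartum held when cow A, B, F, G, H or I was also left out (adjusted p 0.0099 to 0.0395) and when the antepartum array of cow F was (0.0397). It was lost without cow D (0.0652), E (0.0725) or J (0.0536), where the log2 difference was 0.54 to 0.58.

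**Figure D3:**
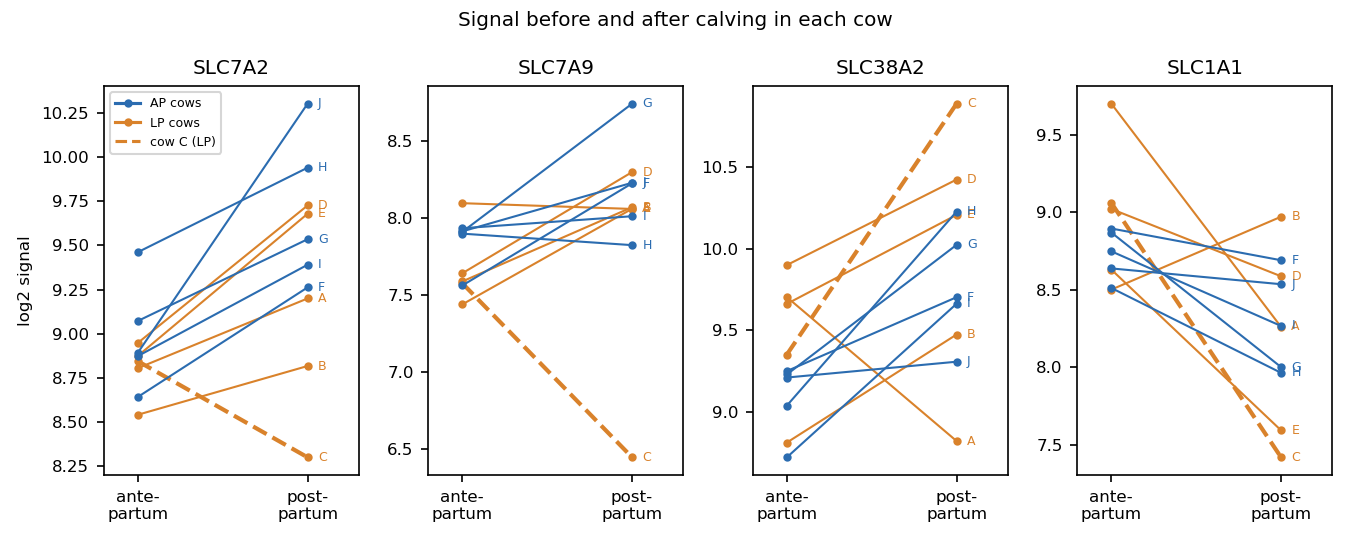
Each line joins the antepartum and postpartum log2 signal of 1 cow, for SLC7A2, SLC7A9, SLC38A2 and SLC1A1, with AP cows in blue, LP cows in orange and cow C dashed. The line of cow C falls while all others rise in SLC7A2, falls most in SLC7A9, where A and H fall slightly, and runs with most others in SLC38A2 and SLC1A1.

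The other cationic carriers showed smaller time differences, from -0.16 in SLC7A14 to 0.030 in SLC7A3 (-0.14 and 0.0088 without cow C postpartum). SLC7A14 is a lysosomal member of this branch, and SLC7A4 had a difference of -0.10. SLC7A1 (CAT1), the widely expressed arginine and lysine carrier, had a time difference of -0.036 (-0.079 without cow C postpartum) and is described with the diets.

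The 3 system A carriers lie in 1 stretch of chromosome 5, between 33619909 and 34198996, in the order SLC38A4, SLC38A2, SLC38A1. All 3 had positive time differences over both diets. SLC38A2 (SNAT2; 34028553 to 34042997, plus strand) is the system A carrier that rises in cultured mammalian cells when amino acids are scarce. In AP its signals were 9.25, 9.23, 9.04, 8.72 and 9.21 antepartum and 9.70, 10.02, 10.23, 9.66 and 9.31 postpartum, so that the lowest postpartum cow was above the highest antepartum cow. Such a separation in AP held for 1 of 35 members and 4.2 percent of all genes. In LP the signals were 9.70, 8.81, 9.35, 9.90 and 9.66 antepartum and 8.82, 9.47, 10.89, 10.42 and 10.21 postpartum, with overlap and with cow A running against the rest. The log2 difference was 0.59 over both diets (SE 0.20, limma adjusted p = 0.188, 9 of 10 cows) and 0.47 without cow C postpartum (adjusted p = 0.214). It passed without cow A, at 0.76 (adjusted p = 0.0357). In AP alone the log2 difference was 0.69 (adjusted p = 0.411), and the adjusted p was 0.047 when only the AP arrays were fitted.

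The other 2 genes of that stretch had smaller differences. SLC38A4 had means of 12.00 ± 0.14 and 12.12 ± 0.036 in AP and 11.94 ± 0.14 and 11.89 ± 0.41 in LP, a log2 difference of 0.035, or 0.12 without cow C postpartum. SLC38A1 had 0.23, or 0.012 without it. In cow C postpartum SLC38A1 and SLC38A2 were above, and SLC38A4 below, all other arrays.

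The system N carriers move glutamine and histidine with sodium in exchange for protons. SLC38A3 (SNAT3), the main hepatic one, had means of 10.50 ± 0.093 and 10.63 ± 0.13 in AP and 10.45 ± 0.21 and 10.44 ± 0.37 in LP, with a time difference of 0.058, or 0.13 without cow C postpartum. SLC38A5 (SNAT5) had AP signals of 5.36, 5.30, 5.15, 5.38 and 4.94 antepartum and 4.58, 5.05, 5.27, 4.75 and 5.02 postpartum. The LP signals were 5.15, 5.41, 5.18, 4.91 and 5.20 antepartum and 5.49, 5.04, 5.47, 5.24 and 5.14 postpartum. It was lower postpartum in 3 of 5 AP cows, most of all in F and I. The log2 difference was -0.29 in AP (SE 0.13, limma adjusted p = 0.511) and 0.11 in LP, or 0.057 without cow C postpartum.

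Of the other SLC38 genes, SLC38A7 (SNAT7), a lysosomal glutamine exporter, had AP signals of 7.29, 7.18, 7.24, 7.22 and 7.30 antepartum and 7.67, 7.41, 7.26, 7.35 and 7.26 postpartum. The LP signals were 6.83, 7.08, 7.13, 7.05 and 7.30 antepartum and 7.32, 7.26, 6.76, 7.36 and 7.31 postpartum. Cow C postpartum was the lowest of all arrays, and the other 4 LP postpartum cows lay within 7.26 to 7.36. The time difference was 0.13 and, without that array, 0.19 (SE 0.069, limma adjusted p = 0.180). SLC38A9 (SNAT9), the lysosomal arginine sensor of mTORC1, had a time difference of -0.069 by its brighter probe set. The authors' deposited table gives log2 ratios of -0.069 and 0.048 for its 2 probe sets, which differ in sign. SLC38A6, SLC38A10 and SLC38A11 had differences of 0.13, 0.034 and 0.056, and SLC38A6 had 0.054 without cow C postpartum.

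The proton-coupled carriers SLC36A1, SLC36A2 and SLC36A3 lie close together on chromosome 7, and SLC36A4 lies on chromosome 29. SLC36A1 (PAT1), found in lysosomes, had means of 6.78 ± 0.19 and 7.01 ± 0.16 in AP and 6.94 ± 0.23 and 7.12 ± 0.26 in LP. It was higher postpartum in 8 of 10 cows, with a log2 difference of 0.20 (SE 0.096, limma adjusted p = 0.407). SLC36A2 and SLC36A3 had -0.049 and 0.071, and SLC36A4 had 0.15. SLC43A2 (LAT4), a uniporter of leucine, phenylalanine and methionine, had means of 6.96 ± 0.19 and 7.26 ± 0.29 in AP and 6.91 ± 0.22 and 7.16 ± 0.36 in LP. Its log2 difference was 0.28 (SE 0.12, limma adjusted p = 0.325), or 0.20 without cow C postpartum.

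**Figure D4:**
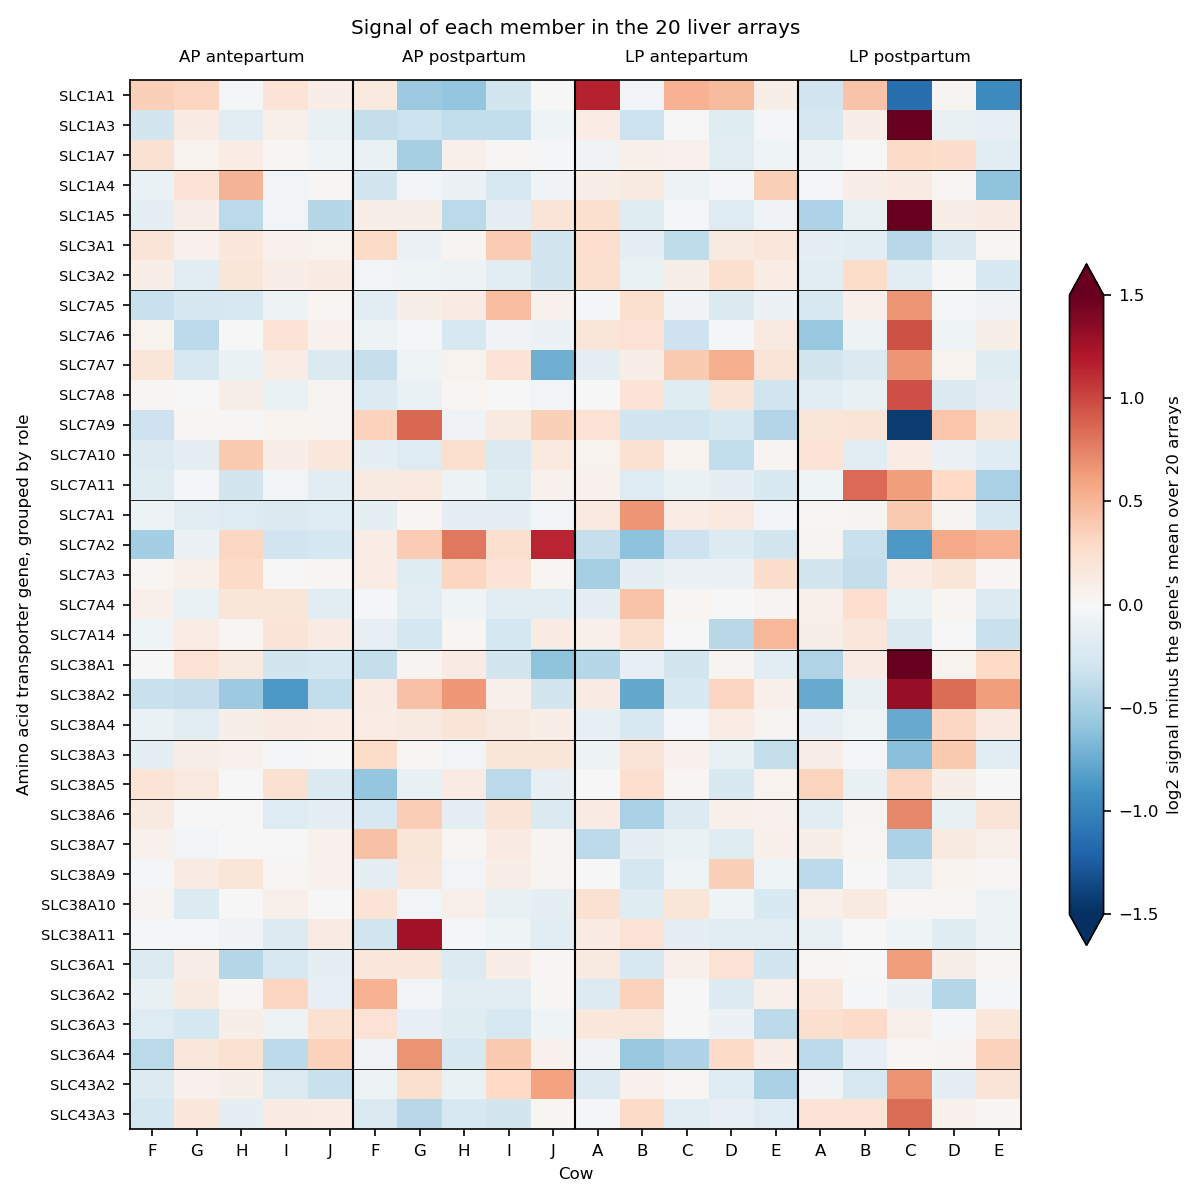
The colour gives the log2 signal of each of the 35 genes minus its mean over the 20 arrays, with the scale ending at 1.5 in either direction. Columns are cows within the 4 groups, and rows are ordered by role. The column of cow C in LP postpartum stands out in both colours, and SLC38A2 is blue in all 5 AP antepartum columns.

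Within each diet, 0 of 35 members passed for time (limma), against 0.415 percent of all genes in AP and 0.015 percent in LP. At an unadjusted p under 0.05 there were 3 in AP (SLC7A2, SLC38A2 and SLC38A5), or 8.57% against 9.2 percent of all genes. Without cow C postpartum, which enters that fit only through the spread, there were 7 in AP, or 20% against 11.8 percent, the same 3 with SLC1A3, SLC43A2, SLC7A5 and SLC7A9. In LP there were 3 (SLC1A1, SLC43A3 and SLC7A11), against 5.96 percent. Without cow C postpartum there were 5, or 14.3% against 6.18 percent, namely SLC1A1, SLC38A7, SLC7A2, SLC7A7 and SLC7A9. With all arrays 0 of 35 members had groups without overlap in LP, against 0.61 percent. The diet by time interaction, which tests whether the change across calving differed between diets, was passed by 0 of 35 members and 0 percent of all genes. Unadjusted, it was under 0.05 in SLC43A3 and SLC38A5, against 2.79 percent of all genes, and without cow C postpartum in SLC43A3 alone, against 3 percent.

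Before calving 0 of 35 members passed for LP against AP (limma), against 0.005 percent of all genes, and 1 member was under an unadjusted 0.05, against 2.45 percent (1 against 3.57 percent without cow C postpartum). After calving 0 passed, against 0.005 percent, and 5 were under an unadjusted 0.05, which is 14.3% against 5.66 percent. Those 5 were SLC43A3, SLC38A5, SLC38A1 and SLC1A3, higher in LP against 3.15 percent of all genes, and SLC7A2, lower in LP against 2.5 percent. Without cow C postpartum 2 of them remained, SLC43A3 and SLC38A5, which is 5.71% against 4.51 percent. Without cow C postpartum the median LP minus AP difference of the members after calving went from 0.065 to -0.030, beside 0.0025 and 0.012 over all genes.

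SLC7A1 (chromosome 12, 31004652 to 31019183, plus strand) was the member under an unadjusted 0.05 before calving. Its signals before calving were 6.47, 6.39, 6.35, 6.33 and 6.36 in AP and 6.69, 7.21, 6.66, 6.69 and 6.50 in LP, so that every LP cow was above every AP cow. Such a separation held for 1 of 35 members and 0.55 percent of all genes. Cow B was the highest LP cow, and cow E lay just above cow F, the highest AP cow. The means were 6.38 ± 0.056 in AP and 6.75 ± 0.27 in LP, and the log2 difference was 0.37, or 1.29-fold (SE 0.12, limma adjusted p = 1.00). After calving the signals were 6.40, 6.57, 6.40, 6.41 and 6.50 in AP and 6.57, 6.59, 6.94, 6.59 and 6.31 in LP. These overlapped, with a log2 difference of 0.14 (SE 0.12), or 0.057 without cow C. The interaction was -0.23 (SE 0.17, limma adjusted p = 1.00). Beside this gene, the antepartum macrophage marker score was -0.092 to 0.58 in LP and -0.18 to 0.13 in AP, with 13 of 13 markers higher in LP. The T or NK cell score was -0.10 to 0.34 in LP and -0.23 to -0.018 in AP, with 13 of 14 higher. By contrast, 12 of 12 fibroblast or stellate cell markers and 10 of 11 skeletal muscle markers were lower in LP. The muscle score was 1.71 in cow F, -0.25 to 0.18 in the other AP cows and -0.41 to -0.097 in LP. The fibroblast or stellate cell score was 0.62 in cow F, -0.39 to 0.26 in the other AP cows and -0.43 to 0.21 in LP. The part of these cell types in the difference was not tested.

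The next members by unadjusted p before calving were SLC7A7, higher in LP by 0.27 (SE 0.19, limma adjusted p = 1.00), and SLC38A7 and SLC7A3, with differences of -0.17 and -0.19. SLC7A3 (CAT3), a cationic carrier known mainly from brain, had antepartum signals of 4.94, 4.99, 5.19, 4.91 and 4.93 in AP and 4.41, 4.78, 4.82, 4.82 and 5.18 in LP. Postpartum they were 5.02, 4.72, 5.23, 5.12 and 4.94 in AP and 4.64, 4.55, 5.02, 5.09 and 4.94 in LP. Cow A was the lowest and the groups overlapped at both times. The mean signal of SLC7A3 was dim, at the 22.5 percentile of all genes.

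SLC43A3 (chromosome 15, 81978436 to 81996826, minus strand) had the lowest p of the members after calving. It belongs to the family by sequence, while in human cells it is known as a carrier of purine nucleobases. Its postpartum signals were 5.75, 5.55, 5.72, 5.68 and 5.99 in AP and 6.17, 6.17, 6.80, 6.02 and 5.99 in LP, so that every LP cow was above every AP cow, by a narrow margin between cows J and E. Such a separation held for 1 of 35 members and 0.645 percent of all genes. Before calving the signals were 5.70, 6.12, 5.83, 6.09 and 6.07 in AP and 5.94, 6.25, 5.81, 5.84 and 5.77 in LP, which overlapped. The postpartum means were 5.74 ± 0.16 and 6.23 ± 0.33, the latter 6.09 ± 0.095 without cow C. The log2 difference was 0.49 (SE 0.14, limma adjusted p = 0.812), or 0.35 without cow C (adjusted p = 0.978). The interaction was 0.53 (SE 0.20, limma adjusted p = 1.00). After calving, 11 of 13 macrophage and 10 of 14 T or NK cell markers were higher in LP (11 and 12 without cow C postpartum). Lower in LP were 1 of 12 fibroblast or stellate cell and 11 of 13 hepatocyte markers (2 and 10 without it). The part of these cell types in the SLC43A3 values was not tested.

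**Figure D5:**
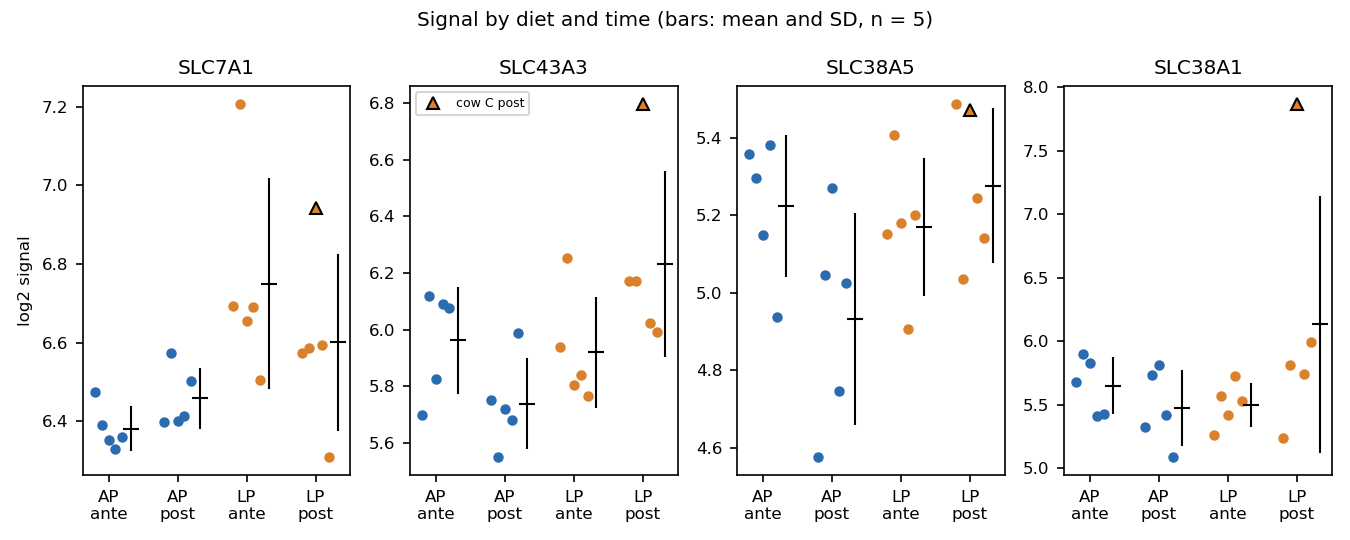
Log2 signals of SLC7A1, SLC43A3, SLC38A5 and SLC38A1 are plotted for each array in the 4 groups, with the mean and SD of n = 5 beside them and cow C postpartum as a triangle. SLC7A1 separates the diets before calving and SLC43A3 after it, and in SLC38A1 the triangle of cow C lies far above all other points.

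For SLC38A5 the postpartum difference between diets was 0.34 (SE 0.13, limma adjusted p = 0.812), and 0.29 without cow C. SLC1A3 and SLC38A1 had 0.75 and 0.66, which became 0.20 and 0.22 without cow C postpartum. SLC7A2 had -0.54 (SE 0.23), which became -0.33. These 3 differences therefore moved by more than 1.5 times with that 1 array. SLC3A1 had -0.25 (SE 0.13, limma adjusted p = 0.812), and SLC36A3 (PAT3) and SLC1A7 had 0.23 and 0.17.

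Genes around the transporters were read from 5 lists, in the comparison of time over both diets. Over all genes 1.5 percent passed in that comparison and 11.9 percent were under an unadjusted 0.05, 5.58 percent higher and 6.27 percent lower. Of the other membrane carriers of amino acids and peptides, mainly SLC6 and SLC15 genes, 0 of 21 measured genes passed by limma and 1 was under an unadjusted 0.05 (SLC6A7, -0.18), with a median of -0.034 beside -0.012 over all genes. Of 30 genes of the amino acid response driven by the transcription factor ATF4, 0 passed and 6 were under an unadjusted 0.05 (20% against 11.9 percent of all genes), 3 in each direction. Their median was 0.021, or -0.014 without cow C postpartum. Without cow C postpartum 2 of the 30 rose, SHMT2, a mitochondrial serine enzyme (log2 difference 0.45, limma adjusted p = 0.0356), and PCK2, the mitochondrial PEP carboxykinase (0.54, 0.0385). Each of them passed in 2 of the 10 fits that also left out another cow or the antepartum array of cow F. With all arrays the stress regulator DDIT4 had -0.40 (limma adjusted p = 0.0777), the serine synthesis gene PSAT1 -0.63 (0.214) and asparagine synthetase, ASNS, 0.38 (0.228).

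Of 34 measured genes of amino acid sensing by mTORC1, 1 fell, FNIP2, a partner of folliculin (log2 difference -0.36, SE 0.076, limma adjusted p = 0.0159, lower in 9 of 10 cows), and the median was 0.024. Its adjusted p was 0.0578 without cow D and 0.0745 without cow I. SESN3, a sestrin, had -0.79 (limma adjusted p = 0.0905) and fell by 0.99 without cow C postpartum (adjusted p = 0.000819). With the animal as a block its adjusted p was 0.0387, and it passed in 10 of 10 fits that left out cow C postpartum and a further cow or array. Of 18 measured enzymes of glutamine and glutamate metabolism, 1 rose, ALDH18A1, which starts proline synthesis from glutamate (0.45, SE 0.095, limma adjusted p = 0.0171), with a higher signal in all 10 cows, and the list's median was 0.0066, or 0.00021 without cow C postpartum. Its adjusted p was 0.0708 without cow F and 0.073 without cow I. With the paired test of the authors' deposited table, adjusted over all genes, p was 0.0801 for FNIP2 and 0.0788 for ALDH18A1. GPT2, the mitochondrial alanine aminotransferase, had 0.47 (adjusted p = 0.104), with 0.0473 under the animal block and 0.0315 without cow C postpartum. GLUL, glutamine synthetase, had -0.33 (limma adjusted p = 0.231). At an unadjusted p under 0.05, 4 of these 18 enzymes were higher and 2 lower, which is 33.3% against 11.9 percent of all genes. Without cow C postpartum 5 were higher and 2 lower (38.9% against 13.7 percent). Of the 34 mTORC1 genes 1 was higher and 2 lower with all arrays (8.82%), and 1 higher and 4 lower without cow C postpartum (14.7%). Of 12 genes of glutathione synthesis and cystine use, 0 passed by limma and 2 were under an unadjusted 0.05 (16.7% against 11.9 percent of all genes), both higher, TXNRD1 at 0.24 and GGCT at 0.37. The list's median was 0.010, or 0.098 without cow C postpartum. For the diets and the interaction, 0 genes of the 5 lists passed by limma, against 0.005 percent of all genes for each diet comparison and 0 percent for the interaction. At most 4 of a list were under an unadjusted 0.05, and these were 4 of the 30 ATF4 genes in the postpartum diet comparison, or 13.3% against 5.66 percent, and 1 without cow C postpartum, against 4.51 percent. In that comparison 25 of the 30 ATF4 genes had higher signals in LP (median 0.14), against 50.8 percent of all genes (median 0.0025). Without cow C postpartum it was 27 (median 0.16), against 53.4 percent (median 0.012). Before calving 2 of the 21 other carriers (9.52%) and 2 of the 30 ATF4 genes (6.67%) were under an unadjusted 0.05, against 2.45 percent. Without cow C postpartum 2 of those carriers were higher and 2 lower in LP (19.0%), and 3 ATF4 genes were higher (10%), against 3.57 percent. In the interaction there was at most 1 of a list (at most 4.76%), against 2.79 percent.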

How the data were processed

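Liver RNA of 20 samples was hybridised to 1-colour Affymetrix gene arrays. The authors deposited SST-RMA log2 signals for 24333 probe sets, per the file headers, and the submitters' processing notes name RMA and Affymetrix Expression Console 1.4. RMA brings all arrays to nearly 1 distribution (array medians 5.97 to 6.14), which hides any change common to all genes, and no detection call was used. The authors' deposited table compares postpartum with antepartum as a log2 ratio, a fold change with its sign, and a p-value from a paired test without adjustment, which was recomputed from the arrays to within 3.7e-12.

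The 20421 probe sets with 1 symbol gave 20011 genes, with the brightest probe set kept for 386 genes that had more than 1. Of the 35 members, 30 matched the RefSeq table (used for names only) by accession and 5 by symbol. The members and gene lists were chosen with earlier results of these data known. Named genes were those of lowest p per comparison and direction, up to 25 members, and for the lists those that passed or had the lowest p. The filter on dim genes kept those with a mean signal above the lower quartile of gene means (5.06) and removed 10 members. These were SLC1A3, SLC1A7, SLC3A1, SLC7A3, SLC7A5, SLC7A11, SLC7A14, SLC36A2, SLC36A3 and SLC38A11. Whether their signal lay above background was not assessed.

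Differences were tested with limma 3.58.1 (R 4.3.3) on 4 group means, two-sided, in 6 comparisons, with Benjamini-Hochberg adjustment over all genes and a threshold of 0.05. Alternatives were the animal as a block, other normalizations, filters and variance settings, array weights, the paired t-test and leaving out cows or arrays. The code was tested on simulated data. The number of arrays limits the precision, and the median SE of a log2 difference was 0.099 for time over both diets and 0.14 within a diet or time. The numbers in the labels are animals, so they pair the arrays. Residuals of the 2 arrays of a cow correlated with a median r of 0.167 (0.0719 to 0.312), against -0.041 between cows.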

Additional observations from a re-analysis of the deposited data

Results flagged for a closer look

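In 17 of 140 groups of 5 arrays, 1 array was separated from the other 4 by more than 0.71 of the group's range, the 95% critical value of Dixon's test. Chance gives about 1 in 20, or 7. Cow C postpartum accounted for 8 of them. In LP postpartum it was high in SLC1A3 (7.55, next array 5.02), SLC1A5 (6.87), SLC36A1 (7.58), SLC38A1 (7.87), SLC43A3 (6.80) and SLC7A8 (6.31), and low in SLC38A7 (6.76) and SLC7A9 (6.45, next array 8.06). Also in LP, cow E was low in SLC1A4 postpartum (5.27), and cow B was high in SLC7A1 antepartum (7.21, next array 6.69).

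In AP postpartum, cow J was high in SLC1A3 (4.85), cow F in SLC36A2 (4.05) and cow G in SLC38A11 (4.66, next array 3.39). In AP antepartum, cow G was low in SLC38A10 (7.31) and SLC3A2 (7.22), cow H was high in SLC7A3 (5.19), and cow F was low in SLC7A9 (7.56, next array 7.90). The antepartum array of cow F also had the skeletal muscle score of 1.71, and its part in that value was not tested.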

How the results depend on the processing

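The count of members that passed was 0 in each of the 6 comparisons with all arrays. For time over both diets it was 1 with array weights (SLC7A2, adjusted p = 0.0279) and 0 to 2 when 1 cow or cow C postpartum was left out. For time in AP it was 1 with array weights (SLC7A2, 0.042) and 1 when only the AP arrays were fitted (SLC38A2, 0.047). With the animal as a replicate block it was 0 in every comparison, and the paired fit changed no call of a member (GPT2 and SESN3 passed in it). It stayed at 0 under quantile normalization, median centring, the filter on dim genes, the mean of probe sets, a trended robust variance and the rounded table. Further alternatives were chosen after seeing the data. Leaving out cow C postpartum together with the antepartum array of cow F gave 1 (SLC7A2), and together with each other cow gave 0 to 3. Of the 31 differences followed through these fits, 1 was reversed, the diet by time interaction of SLC7A2 (main value -0.36). It ran from -0.47 to 0.033 over the fits that left out cows or arrays and was 0.033 without cow C postpartum and cow J. The cause was not tested. Differences outside those 31 also changed sign. Among them were the time differences of SLC1A3, SLC7A8 and SLC43A3 over both diets, without cow C postpartum. Over all genes, the count for time over both diets ran from 131 to 546 when 1 cow or cow C postpartum was left out.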
